A study of Rattus norvegicus with 20 samples.

Results

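Matrix proteases and their inhibitors were examined in gastrocnemius muscle, as the protein-coding rows of the count table named Mmp (matrix metalloproteinases), Adamts (secreted metalloproteinases with thrombospondin motifs) and Timp (tissue inhibitors of metalloproteinases) followed by a number. The rule gave 45 of the 32495 named gene rows, of which 22 were Mmp, 19 Adamts and 4 Timp genes. Muscle came from female Fischer 344 rats, and every rat in the 3 groups carried a transplanted Ward colorectal carcinoma. Tumours grew for 2 weeks before day 0, the first day of chemotherapy. The rats' age was 11 to 12, with no unit stated in the sources used here. The TUMOUR STD group had no chemotherapy and ate a standard diet. The day its muscle was taken is not stated separately in the sources used here. Tumour duration and rat age at sampling may therefore differ from the other groups, and cannot be told apart from the drugs. The CHEMO STD group ate the same diet and received 2 cycles of CPT-11 (irinotecan), a topoisomerase inhibitor, each followed a day later by 5-FU (5-fluorouracil) at 50 mg/kg. CPT-11 was given on days 0 and 7 and 5-FU on days 1 and 8, and muscle was taken 7 days later. The CHEMO FO group had the same tumour and drugs and was switched to a diet with fish oil when chemotherapy began. No group without a tumour was analysed here, so each comparison was made between tumour-bearing rats.

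The matrix metalloproteinases cut collagens, gelatin and other extracellular matrix proteins, and most are made as inactive proenzymes. ADAMTS enzymes cleave proteoglycans such as versican and aggrecan, trim the ends of procollagens, or cut single plasma and cartilage proteins. TIMPs bind and block the active sites, and together these genes set how fast the matrix around muscle fibres turns over after injury, exercise or disuse.

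Counts on named genes ranged from 3020821 to 10857477 per library. The libraries CHEMO STD 1 and CHEMO STD 2 differed far less than other pairs in a group (chi-square per gene 2.23, against 13.7 to 255 in 58 other pairs), so their counts were summed and used as 1 sample, which left 5 TUMOUR STD, 6 CHEMO STD and 8 CHEMO FO samples. Levels are given as CPM, counts scaled to library size with edgeR's TMM factors, and are not scaled by gene length, so they compare samples for a gene and not genes with each other. Of the skeletal muscle markers, 6 of 8 were in the table, and their summed level was 116900 to 230900 CPM, lowest in CHEMO FO 18. CHEMO FO 18 also stood apart elsewhere: of the 11716 genes that passed the filter on low counts, 18.6% had their highest and 18.2% their lowest level in it, so results that rest on it are given with and without it. Summed keratinocyte markers, which belong to skin, were 330.8 CPM in TUMOUR STD 10 and 75.8 CPM in CHEMO FO 16, and 0.24 to 3.54 CPM in the others.

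A majority of the genes had enough counts to be tested, and this differed by family. The filter on low counts (edgeR's default, at least 10 counts in enough samples) was passed by 27 members: 8 of 22 Mmp genes, 15 of 19 Adamts genes and 4 of 4 Timp genes. None of the 4 interstitial collagenase genes passed, nor the 3 stromelysins, the 1 matrilysin or Mmp9 of the 2 gelatinases. A further 14 members had counts but fell under the filter. Mmp1, Mmp1b, Mmp11 and Mmp20 had 0 counts in every library, which allows up to 3 counts, or 0.151 to 1.05 CPM depending on the sample. A set of 10 of the low members lie next to one another in the RefSeq gene order of assembly GRCr8, with at most 2 other protein-coding genes between neighbours. This run (Mmp13, Mmp12, Mmp1b, Mmp3, Mmp1, Mmp10, Mmp8, Mmp27, Mmp20 and Mmp7) held 126 counts in total over the 20 libraries, of which 66 were from Mmp3, and none of its 10 members passed the filter.

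Few members passed the thresholds for a changed gene, and none did after correction over all genes tested. Genes counted as called had a change of 1.5-fold or more and p below 0.05, before adjustment, in edgeR's quasi-likelihood test, which are the thresholds the study used. For CHEMO STD versus TUMOUR STD, 1 of 27 members was called, Mmp17, lower after chemotherapy, and 2.38% of all tested genes were called. In CHEMO FO versus CHEMO STD, 2 of 27 were called, Adamts1 higher and Adamts16 lower with fish oil, against 1.66% of all genes. With fish oil and drugs against TUMOUR STD, 2 of 27 were called, Mmp17 lower and Timp1 higher, against 3.6% of all genes. Without CHEMO FO 18, 26 members were tested and 1, 1 and 0 were called (Adamts16 in each of the first comparisons, higher and then lower), against 2.66%, 1.47% and 2.36% of all genes. Without the filter, 5, 6 and 2 of 41 members were called, against 5.01%, 3.73% and 5.76%. On p below 0.05 without a fold threshold, 1, 3 and 6 members passed, where the share of all genes was 6.5%, 4.51% and 9.04%. The smallest edgeR adjusted p among members was 0.719, 0.974 and 0.486 in these comparisons, and 0 of 11716 genes had an adjusted p below 0.05 in any of them. The comparisons share samples, since CHEMO STD and TUMOUR STD each enter a pair of them, and p-values measure the spread between rats sampled once.

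Directions were mixed. In CHEMO STD versus TUMOUR STD, 11 of the 27 tested members were higher and 16 lower, and the median on the log2 scale was -0.10. The numbers were 12 and 15 in CHEMO FO versus CHEMO STD (median -0.01) and 9 and 18 in CHEMO FO versus TUMOUR STD (median -0.18). Over all genes tested, 49.7%, 48.7% and 50.4% were higher, with medians of -0.0016, -0.0060 and 0.0023. TUMOUR STD 10, the sample with the most keratinocyte RNA, held the highest level of 9 of the 27 tested members and the lowest of 0. Over all tested genes it held the highest level of 12.1% and the lowest of 13.9%. Without it, 161 and 287 of 11751 genes were called in CHEMO STD and CHEMO FO versus TUMOUR STD. With it, 279 and 422 of 11716 were called. The part of this sample in the lower members was not tested.

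**Figure D1:**
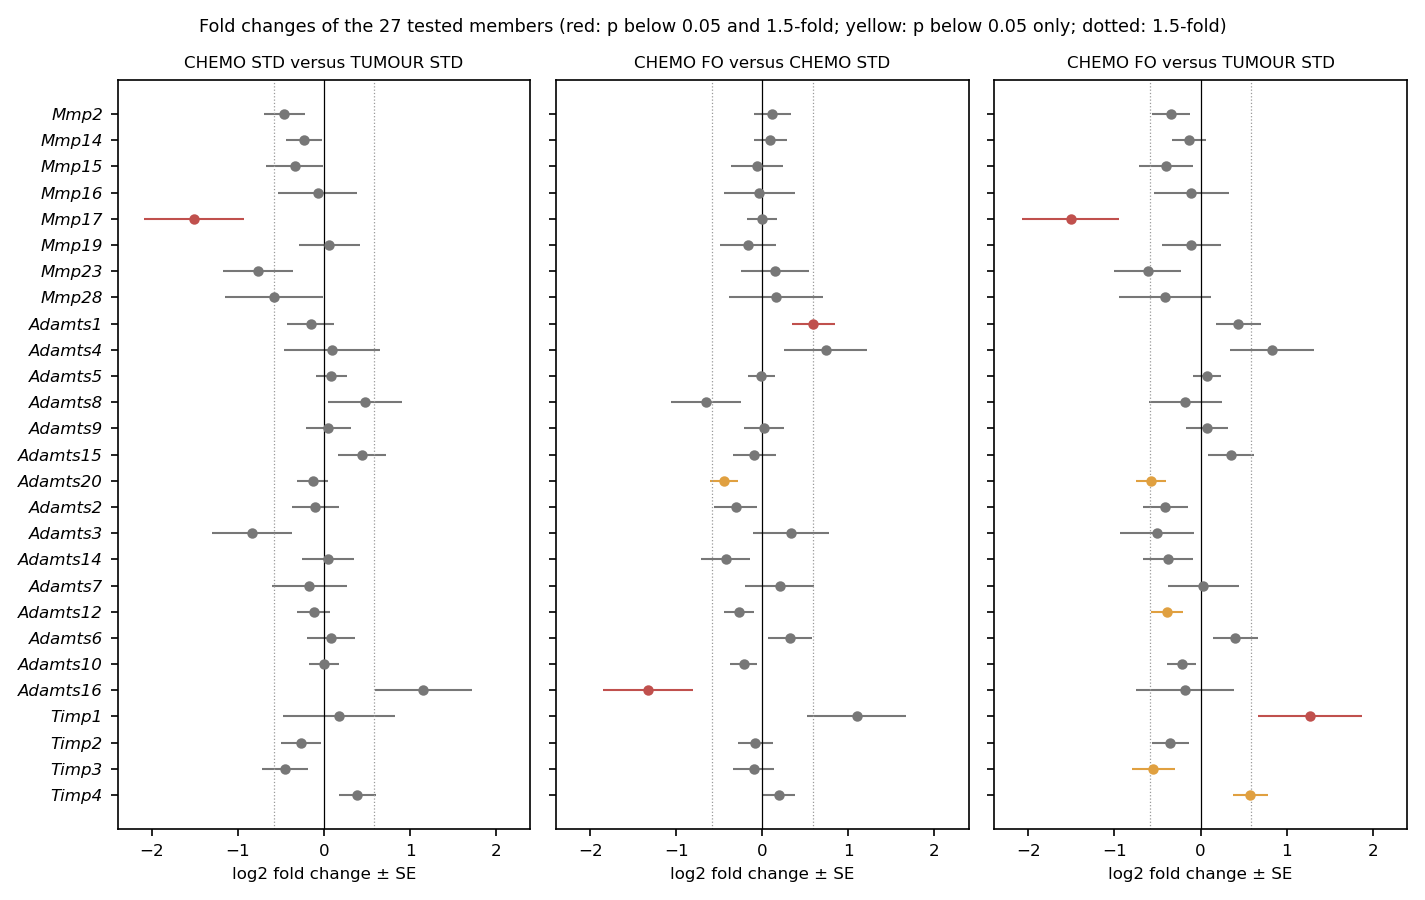
Each row is 1 of the 27 members that passed the filter, and each panel 1 comparison. Points are log2 fold changes from edgeR and bars are standard errors. Most bars reach or lie near 0, and the red points are the calls at p below 0.05 and 1.5-fold: Mmp17, then Adamts1 and Adamts16, then Mmp17 and Timp1.

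Among the gelatinases, Mmp2, which cuts denatured collagen and basement membrane collagen, was measured in every sample, and Mmp9, the gelatinase of neutrophils and macrophages, was near the detection limit. Mmp2 was 77.5, 88.9, 179, 85.6 and 174 CPM in the TUMOUR STD samples 8 to 12. It ran from 72.5 through a median of 78.0 to 138 CPM in CHEMO STD and from 59.8 through 98.9 to 137 CPM in CHEMO FO. TUMOUR STD samples 10 and 12 and CHEMO STD 1/2 stood above the rest of their groups, and the groups overlapped. The log2 fold change was -0.46 (SE 0.241) for CHEMO STD versus TUMOUR STD, with edgeR p = 0.0680 and adjusted p = 0.719, and the exact two-sided permutation test gave p = 0.190. Permutation tests here and below were run on members called, or with the smallest edgeR p, in these same samples. Their p-values are unadjusted and are not separate support for the edgeR values. Without CHEMO STD 1 and 2 the Mmp2 change was -0.63, which passed the thresholds. With each library left out it was -0.27 to -0.57. It was -0.30 with voom and -0.34 with CHEMO STD 1 and 2 kept apart, and none of these was called. The exact permutation p ran from 0.0476 to 0.452 with each sample left out, and was highest without TUMOUR STD 10. Mmp9 had 10 counts in total, of which 7 were in CHEMO STD (2 in CHEMO STD 3, 2 in CHEMO STD 6 and 3 in CHEMO STD 7).

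Membrane-type MMPs stay on the cell surface, where Mmp14 activates the Mmp2 proenzyme. Mmp14 was 17.03, 35.1, 47.1, 34.9 and 39.7 CPM in TUMOUR STD, 19.2 to 38.9 CPM in CHEMO STD (median 30.0) and 24.1 to 37.9 CPM in CHEMO FO (median 32.9). These ranges overlapped throughout, and the largest of its 3 changes was -0.23 (SE 0.209) on the log2 scale. Mmp15, another membrane-type MMP, was 39.3 to 60.2 CPM in TUMOUR STD, 28.5 to 53.7 CPM in CHEMO STD and 28.3 to 60.3 CPM in CHEMO FO apart from CHEMO FO 18, where it was 5.36 CPM.

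Mmp17, a membrane-type MMP held by a glycolipid anchor, was the member called in both comparisons with TUMOUR STD. Its levels in TUMOUR STD were 1.74, 2.19, 4.47, 1.46 and 0.71 CPM. In CHEMO STD it ran from 0 through a median of 0.309 to 1.87 CPM, and in CHEMO FO from 0.240 through 0.682 to 2.34 CPM. Of the 6 CHEMO STD samples, 4 lay below the lowest TUMOUR STD sample, as did 5 of the 8 CHEMO FO samples, and the highest sample was TUMOUR STD 10, the one with the most keratinocyte RNA. The log2 fold change was -1.51 (SE 0.580) for CHEMO STD versus TUMOUR STD, a 2.84-fold lower level, with edgeR p = 0.0161, adjusted p = 0.719 and an exact permutation p of 0.0281. It was -1.51 (SE 0.566) for CHEMO FO versus TUMOUR STD, with edgeR p = 0.0138, adjusted p = 0.495 and an exact permutation p of 0.0311. The count behind these levels was low, 169 over all libraries, 46 of them in TUMOUR STD 10. Mmp17 passed the filter narrowly, largely through the group where it was high, and dropped under it when 1 of 10 libraries was taken away: TUMOUR STD 9, 10, 11 or 12, CHEMO STD 1 or 4, or CHEMO FO 13, 17, 18 or 20. The exact permutation p rose above 0.05 in the first comparison without TUMOUR STD 9 or 10 or CHEMO STD 3, 4, 5 or 7 (up to 0.0619) and in the second without TUMOUR STD 8, 9, 10 or 11 (up to 0.0788). Without TUMOUR STD 10 and CHEMO FO 16 its changes were -1.01 and -1.07 and neither was called. The part of skin RNA in the Mmp17 result was not tested.

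Of the other MMPs, Mmp23, a small MMP tethered to the membrane before release, was 2.43, 2.69, 5.34, 5.18 and 6.39 CPM in TUMOUR STD. It was 0.954 to 3.93 CPM in CHEMO STD (median 2.06) and 0.759 to 5.27 CPM in CHEMO FO (median 3.08). Its change for CHEMO STD versus TUMOUR STD, -0.76 (SE 0.409), did not pass the test (edgeR adjusted p = 0.719). It passed when TUMOUR STD 8 or 9, or CHEMO STD 2 or 7, was left out, with CHEMO STD 1 and 2 both left out, and in the 2-group DESeq2 fit. Mmp19, a secreted MMP of many tissues, was 1.74 to 4.47 CPM in TUMOUR STD, 1.91 to 4.10 CPM in CHEMO STD and 1.27 to 4.39 CPM in CHEMO FO, ranges that nearly coincided.

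The ADAMTS family held the largest number of tested genes. All 7 genes listed as proteoglycan-cleaving enzymes passed the filter, as did the 3 procollagen N-proteinases and both enzymes that cut cartilage oligomeric matrix protein. Adamts20, a versican-cleaving enzyme known for its role in pigment cell migration, was 31.8, 33.6, 23.5, 30.1 and 24.0 CPM in TUMOUR STD. It ran from 22.6 through a median of 25.9 to 31.1 CPM in CHEMO STD and from 12.1 to 25.8 CPM (4 of the 8 at 16.8 or less) in CHEMO FO. Of the 8 CHEMO FO samples, 5 lay below every CHEMO STD and every TUMOUR STD sample. The log2 fold change of CHEMO FO was -0.44 (SE 0.165) against CHEMO STD, with edgeR p = 0.0136, adjusted p = 0.974 and an exact permutation p of 0.0253. Against TUMOUR STD it was -0.58 (SE 0.171), with edgeR p = 0.00271, adjusted p = 0.486 and an exact permutation p of 0.0163. Both changes were under 1.5-fold, though the second passed it without TUMOUR STD 10 or 12 or CHEMO FO 13, 14, 15 or 17, with library totals and with voom. The exact permutation p against CHEMO STD rose above 0.05 without CHEMO STD 4 or 5 (up to 0.0606). Without CHEMO FO 18, the sample with the lowest Adamts20, they were -0.36 and -0.48 (edgeR adjusted p = 0.889 and 0.490), both still at an unadjusted p below 0.05. Chemotherapy alone, CHEMO STD versus TUMOUR STD, gave an edgeR adjusted p of 0.855.

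Adamts16, whose gene is linked to blood pressure in rats, was highest in CHEMO STD. It was 0.348, 1.69, 1.75, 1.13 and 1.24 CPM in TUMOUR STD. In CHEMO STD it ran from 0.841 through a median of 2.92 to 6.12 CPM, and in CHEMO FO from 0 through 1.20 to 2.39 CPM. All CHEMO STD samples but 1 lay above every TUMOUR STD sample, and 3 of the 8 CHEMO FO samples lay below the lowest CHEMO STD sample. The log2 fold change was -1.33 (SE 0.522) for CHEMO FO versus CHEMO STD, a 2.52-fold lower level with edgeR p = 0.0180 and adjusted p = 0.974, and the exact permutation test gave p = 0.0300. Without CHEMO FO 18 it was -1.04 and still called, and without CHEMO STD 3, the sample with the highest level, it was also -1.04 and not called. With voom it was -0.85 and not called. Adamts16 passed the filter on low counts largely through CHEMO STD, the group where it was high. In the 2-group fits of CHEMO FO versus CHEMO STD it fell under the filter and was not tested. The exact permutation p rose above 0.05 without CHEMO STD 1/2, 3, 5 or 7 (up to 0.0754). The change for CHEMO STD versus TUMOUR STD was 1.16 (SE 0.560), which did not pass (edgeR p = 0.0510, adjusted p = 0.719, exact permutation p = 0.0541). It passed without CHEMO FO 18, at 1.15 with an edgeR adjusted p of 0.550, as it did without TUMOUR STD 10, CHEMO STD 2, 4 or 6, or CHEMO FO 17, and in 8 of 11 other settings, both DESeq2 fits among them (1.23 and 1.20).

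Adamts19, an enzyme with few known substrates, followed the same order of groups at counts too low for the filter. It had 71 counts in 16 of the 20 libraries. Its levels were 0, 0.199, 0.486, 0.162 and 0.532 CPM in TUMOUR STD, 0.318 to 1.57 CPM in CHEMO STD (median 1.13) and 0 to 0.535 CPM in CHEMO FO (median 0.246). In 5 of the 6 CHEMO STD samples the level was above that of every sample of the other groups, and the exception was CHEMO STD 5, with 1 count. The difference of mean log2 CPM was 1.29 for CHEMO STD versus TUMOUR STD (exact permutation p = 0.00866) and -1.45 for CHEMO FO versus CHEMO STD (exact permutation p = 0.00200). With each sample left out in turn, the exact permutation p stayed at or below 0.0238 and 0.00544. These are 2 of 17 such tests, and a gene looked at because it passed in the unfiltered fit is not independent of it. In that fit, where 5.01% and 3.73% of genes were called, the edgeR adjusted p was 0.630 and 0.769. The libraries CHEMO STD 1 and 2 held 3 and 17 counts of Adamts19.

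The unfiltered fit also called Mmp9 and Mmp21 (CHEMO STD versus TUMOUR STD) and Mmp21 and Adamts13 (CHEMO FO versus CHEMO STD), each on 10 counts or fewer. Mmp21, a protease of early development, had 6 counts in CHEMO STD 1, 0 in CHEMO STD 2 and 1 in CHEMO STD 4. Adamts13, which cuts von Willebrand factor and is made mainly in liver, had 2 counts each in CHEMO STD 1 and CHEMO STD 4. Exact permutation tests gave p = 0.182 for Mmp9, 0.455 and 0.165 for Mmp21 and 0.165 for Adamts13, and differences in these genes were not detectable at this depth.

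**Figure D2:**
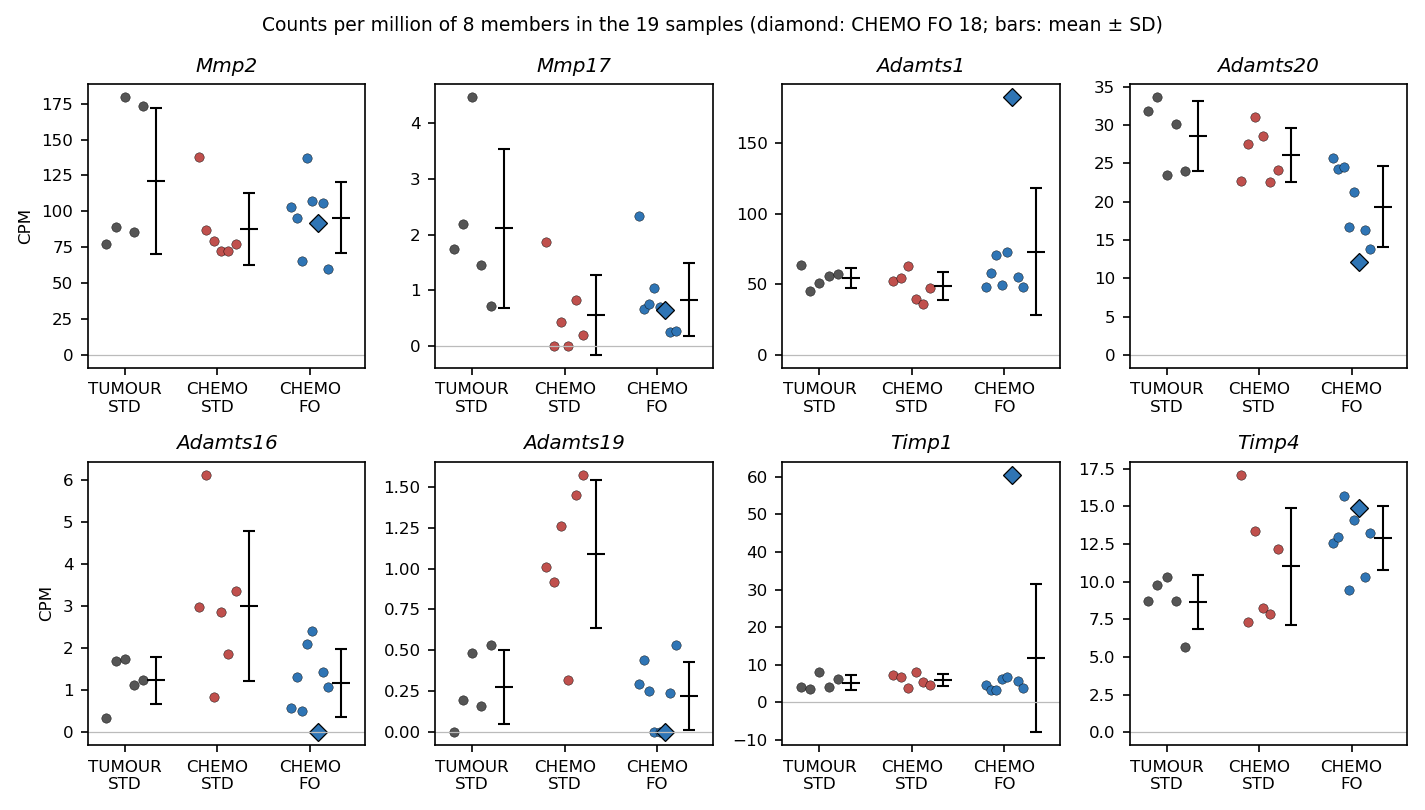
Each panel shows the CPM of 1 member in the 19 samples, by group, with the mean and SD to the right of the points. CHEMO FO 18 is the diamond: it is far above the other samples for Adamts1 (182 CPM) and Timp1 (60.6 CPM), and lowest or at 0 for Adamts20, Adamts16 and Adamts19.

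Adamts1 and Adamts9 both cleave versican, and Adamts1 is an early response gene in inflamed and ovulating tissue. Adamts1 was 63.6, 45.4, 50.6, 55.7 and 57.0 CPM in TUMOUR STD, 36.0 to 63.0 CPM in CHEMO STD (median 49.9) and 48.0 to 182 CPM in CHEMO FO (median 56.4). With CHEMO FO 18 set aside, the CHEMO FO range was 48.0 to 72.9 CPM and overlapped both other groups. The log2 fold change for CHEMO FO versus CHEMO STD was 0.59 (SE 0.249) with it, at edgeR p = 0.0264, adjusted p = 0.974 and an exact permutation p of 0.108. Without it the change was 0.24 and not called, as was 0.25 with voom. The call was also lost without CHEMO STD 2, 5, 6 or 7, at changes of 0.53 to 0.58. Adamts9 was 17.9 to 22.4 CPM in TUMOUR STD, 16.8 to 28.0 CPM in CHEMO STD and 10.1 to 22.7 CPM in CHEMO FO without CHEMO FO 18, which had 45.3 CPM.

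Adamts2, which removes the amino-terminal propeptide of fibrillar procollagens, was 19.98, 33.6, 64.9, 28.6 and 51.1 CPM in TUMOUR STD, 27.3 to 55.8 CPM in CHEMO STD and 15.5 to 50.6 CPM in CHEMO FO. Its change for CHEMO FO versus TUMOUR STD was -0.41 (SE 0.258), which did not pass the test (edgeR adjusted p = 0.625). Adamts12, a cartilage oligomeric matrix protein protease, was 17.4, 22.7, 23.8, 20.6 and 27.7 CPM in TUMOUR STD. It was 14.9 to 26.6 CPM in CHEMO STD (median 20.6) and 11.9 to 29.9 CPM in CHEMO FO (median 15.9). The change for CHEMO FO versus TUMOUR STD was -0.39 (SE 0.186; edgeR adjusted p = 0.551), past an unadjusted p of 0.05 but under 1.5-fold, and -0.33 without CHEMO FO 18, no longer past it.

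The 4 TIMP genes differed in direction for CHEMO FO versus TUMOUR STD: Timp4 was higher, Timp2 and Timp3 were lower, and the sign of Timp1 depended on CHEMO FO 18. Timp4, the inhibitor known for its high level in heart, was 8.69, 9.75, 10.3, 8.74 and 5.68 CPM in TUMOUR STD. It ran from 7.34 through a median of 10.2 to 17.1 CPM in CHEMO STD and from 9.43 through 13.1 to 15.7 CPM in CHEMO FO. Of the 8 CHEMO FO samples, 7 lay above every TUMOUR STD sample. The log2 fold change for CHEMO FO versus TUMOUR STD was 0.58 (SE 0.203; edgeR p = 0.00901, adjusted p = 0.486), just under 1.5-fold, with an exact permutation p of 0.00544. The range with each library left out or under other settings was 0.48 to 0.71, past 1.5-fold without TUMOUR STD 8, 9 or 10, CHEMO STD 6 or CHEMO FO 13, 14, 16 or 19. It was also called in both DESeq2 fits (0.59 in each), with RLE size factors, with library totals and with CHEMO STD 1 and 2 kept apart or both left out. The CHEMO STD versus TUMOUR STD change was 0.39 (SE 0.213; edgeR adjusted p = 0.719).

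Timp3, which binds to the matrix and also blocks ADAMTS enzymes, was 70.9, 72.0, 132, 66.2 and 114 CPM in TUMOUR STD. It was 52.3 to 97.5 CPM in CHEMO STD (median 60.9) and 28.0 to 99.2 CPM in CHEMO FO (median 61.4). The groups overlapped, and the change for CHEMO FO versus TUMOUR STD was -0.55 (SE 0.250; edgeR adjusted p = 0.540), past an unadjusted p of 0.05 but under 1.5-fold. Without CHEMO FO 18, which had the lowest level, it was -0.43 and no longer past it, and without TUMOUR STD 8, 9 or 11 or CHEMO FO 14 or 16 it was called, at -0.61 to -0.67. Timp2, which helps Mmp14 activate Mmp2, was 71.8, 88.3, 148, 75.6 and 147 CPM in TUMOUR STD, 68.7 to 141 CPM in CHEMO STD (median 79.4) and 56.0 to 106 CPM in CHEMO FO (median 88.6). Its changes of -0.27 (SE 0.230) and -0.35 (SE 0.216) for CHEMO STD and CHEMO FO versus TUMOUR STD did not pass the test.

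Timp1, an inhibitor that rises with inflammation and injury, had its call from 1 sample. Its levels were 4.17, 3.38, 8.06, 4.04 and 6.21 CPM in TUMOUR STD and 3.79 to 7.95 CPM in CHEMO STD (median 6.06). In CHEMO FO they were 3.29 to 6.61 CPM in 7 samples and 60.6 CPM in CHEMO FO 18, where 667 of the 1305 counts of all libraries lay. With that sample, the log2 fold change for CHEMO FO versus TUMOUR STD was 1.27 (SE 0.607; edgeR p = 0.0473, adjusted p = 0.551), and the exact permutation test on log2 CPM gave p = 0.751. Without it the change was -0.11 (edgeR adjusted p = 0.934). Against CHEMO STD the change was 1.10 with the sample and -0.29 without it, and neither passed the test. It was called higher without CHEMO STD 1 or CHEMO FO 13, 14, 15 or 20, at changes of 1.21 to 1.25. The call against TUMOUR STD was also lost without TUMOUR STD 8, 9, 11 or 12 or CHEMO STD 3, 4, 5, 6 or 7, at changes of 1.14 to 1.35.

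CHEMO FO 18 held the extreme levels of some members. Of the 27 tested members, 4 were highest in it of all samples (Timp1, Adamts1, Adamts9 and Adamts15) and 7 were lowest in it, beside 18.6% and 18.2% of all tested genes, and nothing particular to the members is read from these counts. Timp1 was 12.9 times the median of the other 7 CHEMO FO samples, Adamts1 3.30 times, Adamts9 2.56 times and Adamts15 2.17 times. Mmp15 was at 0.134 of that median, Adamts8 at 0.152 and Timp3 at 0.433. Under the filter, 30 of the 66 Mmp3 counts came from this library, as did every count of Mmp13 (4) and Mmp10 (3), and the next highest Mmp3 count was 19, in TUMOUR STD 10. Some macrophage markers moved with it: 4 of the 8 listed genes were highest there, and the summed level was 690 CPM, mostly Cd163 (273 CPM) and Mrc1 (167 CPM), against 191 to 306 CPM in the other CHEMO FO samples, 239 to 427 CPM in CHEMO STD and 184 to 348 CPM in TUMOUR STD. Of the other macrophage markers, Adgre1 (7.54 CPM) was lowest of the CHEMO FO group and Csf1r (54.4 CPM) and Lyz2 (42.9 CPM) were near its medians of 54.9 and 42.8 CPM. Fibroblast markers were at their lowest sum, 1733 CPM against 2136 CPM or more elsewhere, with 4 of the 7 in the table at their lowest, Col1a1 (201 CPM, against 882 CPM or more elsewhere) and Col3a1 among them. Dcn (987 CPM) and Pdgfra (80.7 CPM), also fibroblast markers, were at the CHEMO FO maximum. Summed neutrophil markers were 1.73 CPM there and 0 to 5.70 CPM in the other samples, and S100a8, S100a9 and Csf3r were at the CHEMO FO maximum at 0.454, 0.818 and 0.454 CPM, while Mpo and Ngp had 0 counts in it and Camp and Elane had 0 in every sample. The part of these cells in the levels was not tested, and in whole muscle more cells of a type and more RNA per cell cannot be told apart.

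**Figure D3:**
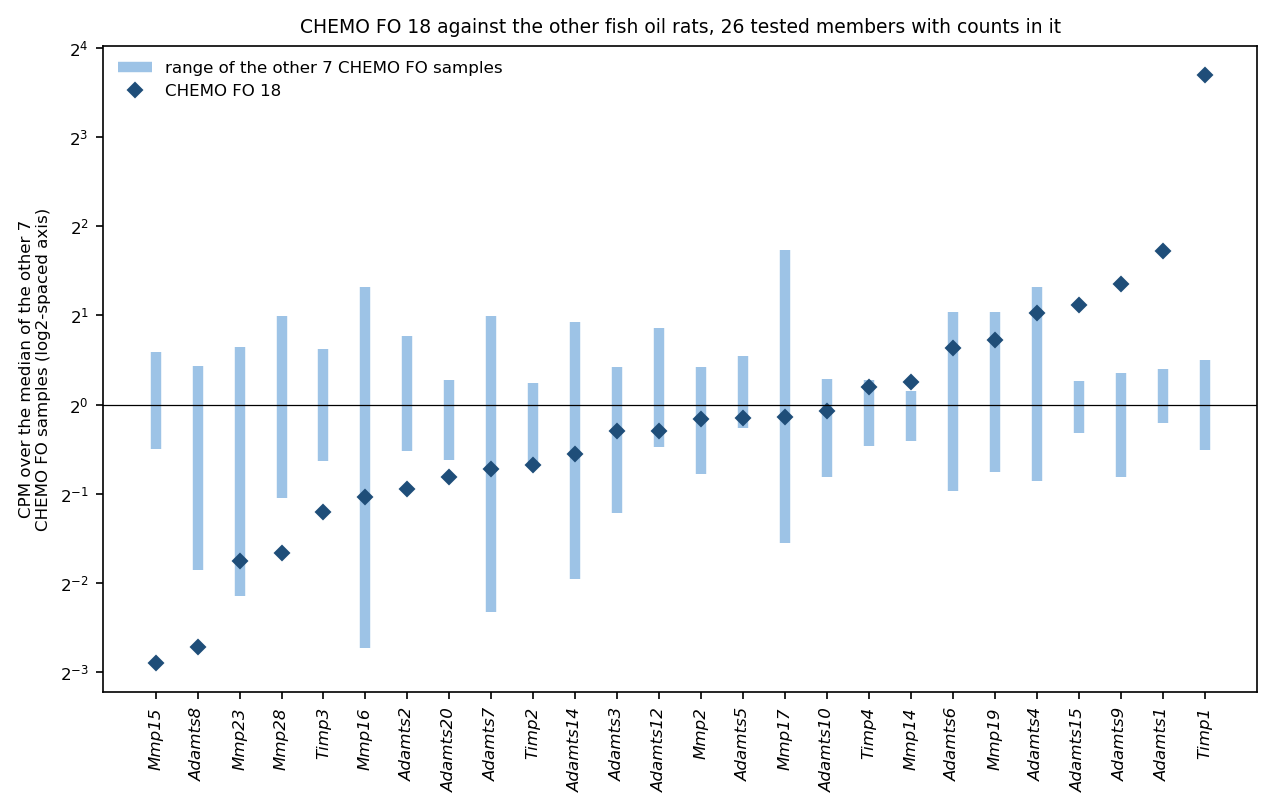
The vertical axis, spaced by log2, is the CPM over the median of the other 7 CHEMO FO samples, for the 26 tested members with counts in CHEMO FO 18. Diamonds are CHEMO FO 18 and bars span the other 7 samples. Timp1 (12.9), Adamts1 (3.30), Adamts9 (2.56), Adamts15 (2.17) and Mmp14 (1.19) lie above their bars. Mmp15 (0.134), Adamts8 (0.152), Mmp28 (0.315), Timp3 (0.433), Adamts2 (0.518), Adamts20 (0.569) and Timp2 (0.624) lie below.

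Promoter sequences are shown for 5 of the genes that peaked in CHEMO FO 18: Timp1, Adamts1 and Adamts9, the tested members with the highest ratios, and Mmp3 and Mmp13 from the run of low MMPs. Adamts15 and Mmp10 also peaked there, with a lower ratio and fewer counts, and are left out for length. They are from RefSeq, assembly GRCr8, cover 250 bases before the gene start and 50 after it, and are written 5′ to 3′ on the gene's strand. Both strands were searched for TGANTCA, a written form of the AP-1 motif, for the TATA box written as TATAAA and for the GC box written as GGGCGG, and matches are in capitals. The CRE motif (TGACGTCA) and the E-box (CACGTG) were searched as well and had no match in these 5 windows. Only exact letters were searched. Sites that differ by a letter, such as tgagtaa in the Timp1 window, were not marked or counted. Timp1 is at chrX:3771073-3771372 on the minus strand, Adamts1 at chr11:38427335-38427634 on the minus strand, Adamts9 at chr4:127019827-127020126 on the minus strand, Mmp3 at chr8:12925031-12925330 on the plus strand and Mmp13 at chr8:12782579-12782878 on the plus strand.
Timp1: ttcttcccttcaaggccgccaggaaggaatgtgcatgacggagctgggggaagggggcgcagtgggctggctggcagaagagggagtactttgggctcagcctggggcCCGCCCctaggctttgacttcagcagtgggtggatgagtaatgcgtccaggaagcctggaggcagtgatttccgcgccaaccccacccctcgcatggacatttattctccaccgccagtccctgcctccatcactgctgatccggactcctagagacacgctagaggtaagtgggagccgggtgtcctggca
Adamts1: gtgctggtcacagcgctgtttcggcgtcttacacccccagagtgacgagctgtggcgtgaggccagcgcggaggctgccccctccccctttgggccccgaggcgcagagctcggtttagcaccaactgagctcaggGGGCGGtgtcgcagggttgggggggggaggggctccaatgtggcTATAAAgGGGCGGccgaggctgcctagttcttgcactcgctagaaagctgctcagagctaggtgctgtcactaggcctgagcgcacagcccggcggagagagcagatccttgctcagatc
Adamts9: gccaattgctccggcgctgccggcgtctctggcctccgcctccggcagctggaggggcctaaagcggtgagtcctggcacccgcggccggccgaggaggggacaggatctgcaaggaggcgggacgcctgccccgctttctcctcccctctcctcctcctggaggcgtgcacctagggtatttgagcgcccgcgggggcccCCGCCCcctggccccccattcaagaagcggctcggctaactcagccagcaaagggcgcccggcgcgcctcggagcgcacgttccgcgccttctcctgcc
Mmp3: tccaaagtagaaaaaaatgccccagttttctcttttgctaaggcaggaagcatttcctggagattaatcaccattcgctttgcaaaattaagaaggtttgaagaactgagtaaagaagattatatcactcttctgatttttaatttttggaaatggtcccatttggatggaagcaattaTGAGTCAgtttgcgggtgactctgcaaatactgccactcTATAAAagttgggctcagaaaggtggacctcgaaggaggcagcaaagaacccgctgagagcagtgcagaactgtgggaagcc
Mmp13: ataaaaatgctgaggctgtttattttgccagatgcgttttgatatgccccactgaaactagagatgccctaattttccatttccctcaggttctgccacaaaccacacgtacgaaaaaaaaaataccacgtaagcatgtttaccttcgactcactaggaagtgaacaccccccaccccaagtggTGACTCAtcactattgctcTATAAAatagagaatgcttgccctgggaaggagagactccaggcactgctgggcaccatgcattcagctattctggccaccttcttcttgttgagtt

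In Mmp3 the AP-1 match begins 71 bases before the start and the TATA box 32 bases before it, and in Mmp13 they begin 66 and 47 bases before it. The Adamts1 window held a TATA box beginning 70 bases before the start between GC boxes at 114 and 63, and the Timp1 and Adamts9 windows held 1 GC box each, at 142 and 49 bases. RefSeq windows were found for 34 of the 45 members, and for genes with several the first listed was used. The AP-1 letters were in 7 of them (Mmp1, Mmp3, Mmp7, Mmp10, Mmp12, Mmp13 and Mmp20), 7 of the 10 genes in the low run and 0 of the 24 others, while 7.33% of 27457 windows of all genes held them. None of the 18 windows of members that passed the filter held these exact letters. Variants of the motif were not searched, so this does not show that a window lacks an AP-1 site. The TATA letters were in 12 of the 34 windows (14.3% of all genes) and the GC box in 15 (34.9% of all genes). The CRE letters were in 0 of the 34 (1.91% of all genes) and those of the E-box in 3 (6.65% of all genes).

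Between rats of a group, Mmp2 varied with its activator and its partner inhibitor, and also with fibroblast markers and Ckm, given further below. After group means were subtracted from log2 CPM, Mmp14 and Mmp2 had a Pearson r of 0.68 over the 19 samples (permutation p = 0.00082, adjusted p = 0.00137 over 5 relations; Spearman rho 0.71, permutation p = 0.00084). Timp2 and Mmp2 had r = 0.88 (permutation p = 0.00041, adjusted p = 0.00102; rho 0.87, permutation p = 0.00039). Without the 2 samples farthest from the median of the first gene, r was 0.74 and 0.82, and without CHEMO FO 18 it was 0.70 and 0.94. TUMOUR STD 10 and 12 and CHEMO STD 1/2 had the highest levels of both Timp2 and Mmp2.

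Summed fibroblast markers moved with Mmp2 as well, with r = 0.85 (permutation p = 0.00019, adjusted p = 0.00095; rho 0.84, permutation p = 0.0001) and 0.77 without the 2 farthest samples. Col1a1 had the highest mean of these markers in each group (5586 CPM in TUMOUR STD, 2861 CPM in CHEMO STD and 2160 CPM in CHEMO FO), so the sum leans most on it. Ckm, the muscle creatine kinase, had r = 0.67 with Mmp2 (permutation p = 0.00766, adjusted p = 0.00957; rho 0.69, permutation p = 0.00541), and 0.80 without the 2 farthest samples, a relation added after the data were seen. Without CHEMO FO 18, r with Mmp2 was 0.90 for fibroblast markers and 0.82 for Ckm. Fibroblast markers and Ckm were thus both correlated with Mmp2, and the part of each was not tested. Correlations of Mmp2 with all genes were not computed, so none of these relations is read as particular to its partner. Macrophage markers and Timp1 had r = 0.72 (permutation p = 0.0163, adjusted p = 0.0163; rho 0.41, permutation p = 0.0887). That relation rested on CHEMO FO 18: r was 0.30 without it (permutation p = 0.265) and 0.24 without the 2 farthest samples (permutation p = 0.391).

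**Figure D4:**
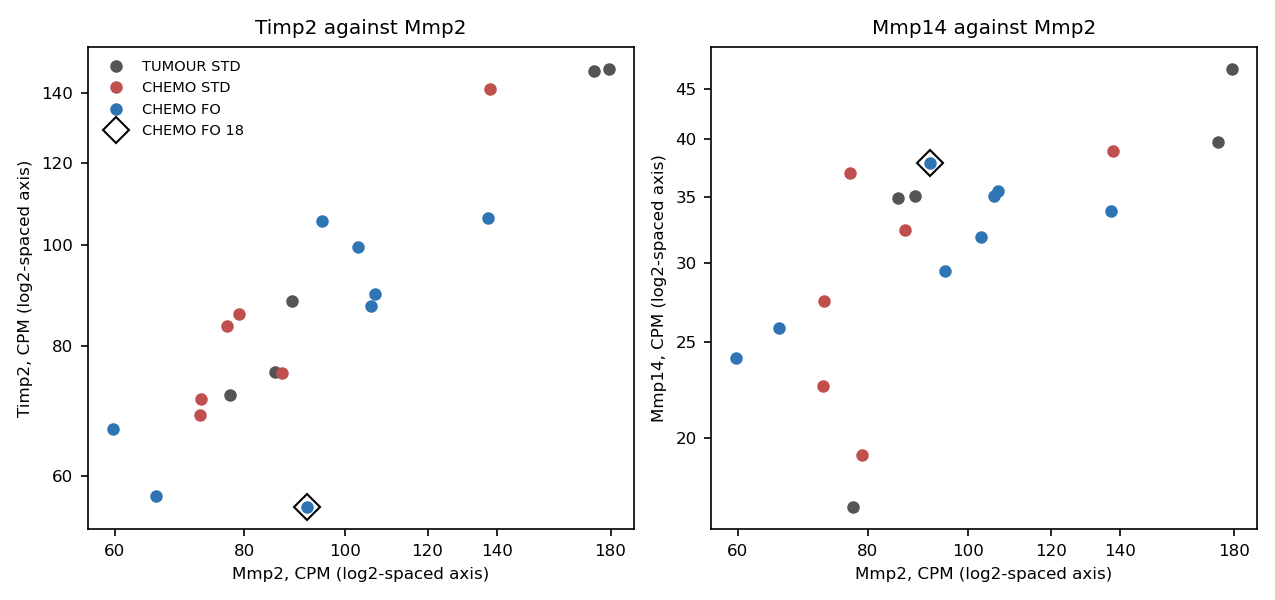
Each point is 1 of the 19 samples, with Mmp2 on the horizontal axis and Timp2 (left) or Mmp14 (right) on the vertical axis, all in CPM on axes spaced by log2. Samples high in Mmp2 were high in both, TUMOUR STD 10 and 12 and CHEMO STD 1/2 (138 to 179 CPM of Mmp2) among them, and the ringed CHEMO FO 18 lies below the other points for Timp2 (56.0 CPM).

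Few genes of the surrounding pathways were called. Matrix substrates (collagens, fibronectin, proteoglycans and basement membrane proteins) were lower after chemotherapy in 18 of 18 tested genes in CHEMO STD versus TUMOUR STD (median -0.35 on the log2 scale) and in 17 of 18 in CHEMO FO versus TUMOUR STD (median -0.45). Of these, 2 were called lower in the first, Fmod and Fn1, and 3 in the second, Fmod, Fn1 and Col1a1, while 2.38% and 3.6% of all tested genes were called in either direction. Fmod, the collagen-binding proteoglycan fibromodulin, fell by 0.88 (SE 0.399) and 0.94 (SE 0.370) on the log2 scale (edgeR adjusted p = 0.719 and 0.508). Fn1, fibronectin, fell by 0.72 (SE 0.324) and 0.65 (SE 0.302), and Col1a1, the main fibrillar collagen chain, fell by 1.37 (SE 0.599) for CHEMO FO versus TUMOUR STD. Without CHEMO FO 18, Fmod and Fn1 were called in the first and Fmod and Col1a1 in the second. TUMOUR STD 10 and 12 had 12720 and 13390 CPM of fibroblast markers, against 2906 to 5247 CPM in the other TUMOUR STD samples. Their summed tendon markers were 1643 and 1388 CPM, against 617 to 651 CPM in the others of that group. Col1a1 is on the fibroblast list and Fmod on the tendon list, so these sums are not separate from the substrates. The part of those samples in the lower substrates was not tested.

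Of the 8 tested ADAMTS-like and propeptide-processing genes, 8 were lower in CHEMO STD versus TUMOUR STD (median -0.30) and none was called. In CHEMO FO versus TUMOUR STD, where 3.6% of all tested genes were called, 7 were lower and 2 were called, Adamtsl3 at -0.63 (SE 0.235; edgeR adjusted p = 0.491) and Pcolce, an enhancer of procollagen processing, at -0.64 (SE 0.273; edgeR adjusted p = 0.524). Neither was called without CHEMO FO 18. Of 13 genes of the plasminogen system and protease control, 12 were lower in CHEMO STD versus TUMOUR STD (median -0.29) with none called. None of the 6 tested ADAM sheddases was called in any comparison, and their medians lay between -0.04 and 0.01.

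Some members lie across other genes in RefSeq, which matters because no source used here says whether the counting used strand. Timp1, Timp3 and Timp4 lie inside Syn1, Syn3 and Syn2, synapsin genes that had at most 2, 19 and 3 counts in any library. Mmp11, which had no counts, partly overlaps Chchd10, with up to 5436 counts in a library. Reads from such partners and from the member cannot be told apart without strand.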

How the data were processed

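RNA of gastrocnemius muscle was sequenced by the authors as rRNA-depleted stranded libraries, 20 in all. Per the labels and the study's methods, reads were trimmed with Trim Galore 0.4.1, checked with FastQC 0.11.4 and aligned to Rnor 6 with TopHat2 2.0.10 and Bowtie2, and unnormalised gene counts were deposited by the authors. The settings of the counting step: not given in the sources used here. Rows without a gene name (388, holding 0.102% to 0.272% of a library's counts) were left out, and 2 values of Myh4 were written with 3 digits.

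Counts were fitted in R 4.3.3 with edgeR 4.0.16 (TMM factors, default filter with minimum count 10 and total 15, quasi-likelihood test, 3 groups in 1 fit), with Benjamini-Hochberg adjustment over all genes tested. The SE was the log2 fold change over the root of F. CPM used TMM library sizes. Single genes had exact two-sided permutation tests of mean log2 CPM (prior count 2), and correlations 100000 permutations within groups (scipy 1.17.1). Named were the 4 Timp genes, each member called with or without the filter, the 3 smallest p per comparison, the 5 highest by CPM in Mmp and Adamts, Mmp2, Mmp9, Mmp14 and called pathway genes, except items that are not reported here. CHEMO FO 18's highest and lowest members, and the members that overlap other genes, were named after their values were seen. Alternatives were DESeq2 1.42.0, limma 3.58.1 voom, other scaling, filters and thresholds, and each library left out. The members and lists were chosen with earlier results of these data known. Scripts were tested on simulated data. The marker lists for which no result is given above (mast cell, T cell, endothelial, smooth muscle, epithelium) had summed levels of 14.4 to 44.5, 14.0 to 44.3, 139 to 281, 2923 to 7063 and 0.909 to 17.1 CPM. Summed tendon markers, given above only for TUMOUR STD, were 260 to 1643 CPM over all samples. Depth limits what low counts can show, and intervals for 0 counts cover counting error only.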

Additional observations from a re-analysis of the deposited data

Results flagged for a closer look

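Among 56 groups of 5 to 8 samples of the named members, 9 held a sample whose gap to the rest exceeded Dixon's 95% critical value. The rate of about 1 in 20 groups by chance assumes normally distributed values, which low counts are not, so the 9 are not set against it. In CHEMO FO 18, Timp1 was 60.6 CPM (others 3.29 to 6.61), Adamts1 was 182.3 CPM (others 48.0 to 72.9) and Adamts9 was 45.3 CPM (others 10.1 to 22.7). In CHEMO STD 1/2, Mmp2 was 137.8 CPM (others 72.5 to 86.9), Timp2 was 141.2 CPM (others 68.7 to 85.8) and Mmp21 was 0.303 CPM (others 0 to 0.105). In CHEMO FO 13, Mmp17 was 2.34 CPM (others 0.240 to 1.05) and Adamts12 was 29.9 CPM (others 11.9 to 18.6). In TUMOUR STD 9, Mmp9 was 0.0995 CPM, which is 1 count, and 0 in the others, and a lone nonzero value is flagged whatever its size.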

How the results depend on the processing

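Each value was recomputed under the alternatives listed with the methods, and of 1178 recomputed values 1025 kept their direction and their side of the threshold, or stayed close in size. Changes that were not called at first count among these while they stayed uncalled with the same sign. For members called, only the number was compared, so another gene could take the place of the first. In CHEMO STD versus TUMOUR STD the single call was Adamts16 in the 2-group edgeR fit, Mmp23 without TUMOUR STD 9 and Adamts3 without TUMOUR STD 11, in place of Mmp17. The number of members called in CHEMO STD versus TUMOUR STD (1) was 2 with RLE size factors, library totals, either DESeq2 fit, or CHEMO STD 1 and 2 kept apart. It was 3 with both of those left out, 5 without the filter, 0 with a stricter filter and 0 at an adjusted p below 0.05. For CHEMO FO versus CHEMO STD (2) it was 6 without the filter, 4 with CHEMO STD 1 and 2 left out, 1 in the 2-group edgeR and DESeq2 fits or at 2-fold, and 0 with voom or at an adjusted p below 0.05. For CHEMO FO versus TUMOUR STD (2) it was 6 without a fold threshold, 4 with library totals, 1 with a stricter filter or 2-group DESeq2, and 0 in the 2-group edgeR fit or at an adjusted p below 0.05. With each library left out, these counts ranged from 0 to 4, 1 to 3 and 0 to 5. Some counts were lower because a gene was under the filter and so not tested. This held for Adamts16 in the 2-group fits of CHEMO FO versus CHEMO STD. It also held for Mmp17 in the 2-group fits against TUMOUR STD, with the stricter filter and with CHEMO STD 1 and 2 both left out. Timp1 reversed: for CHEMO FO versus CHEMO STD it was -0.27 and -0.26 in the DESeq2 fits, -0.083 with voom and -0.29 without CHEMO FO 18, and -0.29 to 1.25 over the libraries left out (mean log2 CPM -0.29 to 0.29). For CHEMO FO versus TUMOUR STD it was -0.082 and -0.10 in the DESeq2 fits and -0.11 without CHEMO FO 18, and -0.11 to 1.52 over the libraries left out (mean log2 CPM -0.081 to 0.54). The correlation of macrophage markers with Timp1 fell to 0.30 without CHEMO FO 18 and 0.24 without the 2 farthest samples. DESeq2 was run with its default settings, which can replace outlying counts in larger groups. Its Timp1 values are therefore not read as separate from leaving out CHEMO FO 18. Whether a Timp1 count was replaced was not examined, and the cause of these shifts was not tested. DESeq2 gave an adjusted p below 0.05 to 0 members in any comparison, and to 0 to 16 genes. No paired analysis was possible because each rat was in only 1 group, assigned at random per the study's methods. Depth limits members with few counts: Mmp17, Adamts16 and Adamts19 rest on 169, 220 and 71 counts over 20 libraries.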
